A study of Mus musculus with 4 samples.

Results

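The genes described here are the PAR bZIP factors *Dbp*, *Tef* and *Hlf*, their competitor *Nfil3*, and the bHLH-Orange repressors *Bhlhe40* and *Bhlhe41*, 6 of the 20642 gene symbols of the deposited table. They were chosen by symbol, and each had 1 row in the table. All 6 were active, meaning that reads were found at the promoter and that the gene body averaged more than 4 normalized reads per kb, as for 12705 symbols in all. The data are PRO-seq (precision nuclear run-on sequencing), which sequences nascent RNA from polymerases engaged on genes in purified nuclei. Livers of C57BL/6 mice were taken on postnatal day 14, and 2 libraries of each genotype, WT1 and WT2 and KO1 and KO2, were each made from the pooled nuclei of 9 mice. All mice carried *Alb-Cre*. WT mice were *Hdac3* +/+, and KO mice carried conditional alleles, *Hdac3* fl/fl or fl/-. Cre was driven by the albumin promoter, which is active in hepatocytes. Which other cells of a KO liver keep *Hdac3* was not examined here, and each fl/- mouse has a null allele in all of its cells. The time of day of the sampling is not given in the sources used here.

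*Dbp*, *Tef* and *Hlf* encode proline and acidic amino acid-rich basic leucine zipper activators that bind D-box elements. *Nfil3* (also E4BP4) encodes a bZIP repressor that binds the same elements. *Bhlhe40* and *Bhlhe41* (DEC1 and DEC2) encode basic helix-loop-helix repressors that bind E-boxes and oppose CLOCK and BMAL1, the activators of the core clock. In adult liver these genes are transcribed with a daily rhythm, *Dbp* and *Nfil3* at opposite times of day, and PAR bZIP factors drive genes of drug and lipid metabolism. HDAC3, recruited by NCOR with the repressors REV-ERBα and REV-ERBβ, is a part of the same clock, so these genes bear on what the loss of *Hdac3* does to clock output.

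Promoter sequences of GRCm38.p6 (RefSeq) were available for 5 of the 6 genes, from 250 bases before to 50 bases after the start site, and were searched on both strands for 3 clock elements. These were the E-box CACGTG, which reads the same on both strands, the D-boxes TTATGTAA and TTACGTAA, and the cores TAGGTCA and TGGGTCA of the element bound by ROR and REV-ERB. *Tef* and *Bhlhe41* held 1 E-box each, *Nfil3* held 1 ROR core, *Dbp* and *Hlf* held none of these letters, and no D-box was found in any of them. Of the 32851 promoters of this length, 7.15% held the E-box, 1.06% a D-box and 6.45% a ROR core. No match overlapped another. The sequences below show the 3 promoters with a match and that of *Dbp*, which stood apart in the gene body, in lower case with the matches in capitals. They are *Tef* (chr15:81802423-81802722, plus strand), with the E-box starting 127 bases before the start site, *Bhlhe41* (chr6:145865371-145865670, minus strand), with the E-box at 153 bases before it, *Nfil3* (chr13:52980990-52981289, minus strand), with the ROR core on the opposite strand at 12 bases before it, and *Dbp* (chr7:45704997-45705296, plus strand). *Bhlhe40* is named only.
Tef: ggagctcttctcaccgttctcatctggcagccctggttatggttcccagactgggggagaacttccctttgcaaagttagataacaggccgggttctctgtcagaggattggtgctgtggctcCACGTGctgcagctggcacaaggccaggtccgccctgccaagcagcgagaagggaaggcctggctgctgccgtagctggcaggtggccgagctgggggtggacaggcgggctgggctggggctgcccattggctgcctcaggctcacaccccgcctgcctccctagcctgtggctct
Bhlhe41: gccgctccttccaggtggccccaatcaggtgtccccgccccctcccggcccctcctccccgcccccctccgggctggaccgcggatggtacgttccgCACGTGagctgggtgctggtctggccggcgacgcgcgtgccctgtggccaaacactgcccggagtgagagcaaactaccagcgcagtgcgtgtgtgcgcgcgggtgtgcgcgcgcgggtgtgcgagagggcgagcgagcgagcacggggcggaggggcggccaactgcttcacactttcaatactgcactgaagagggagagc
Nfil3: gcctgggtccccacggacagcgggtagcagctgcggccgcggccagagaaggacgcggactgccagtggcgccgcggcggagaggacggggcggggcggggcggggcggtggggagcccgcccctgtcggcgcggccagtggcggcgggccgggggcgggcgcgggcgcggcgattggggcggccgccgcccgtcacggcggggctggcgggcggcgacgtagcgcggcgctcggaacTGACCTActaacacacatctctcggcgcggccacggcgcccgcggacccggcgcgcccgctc
Dbp: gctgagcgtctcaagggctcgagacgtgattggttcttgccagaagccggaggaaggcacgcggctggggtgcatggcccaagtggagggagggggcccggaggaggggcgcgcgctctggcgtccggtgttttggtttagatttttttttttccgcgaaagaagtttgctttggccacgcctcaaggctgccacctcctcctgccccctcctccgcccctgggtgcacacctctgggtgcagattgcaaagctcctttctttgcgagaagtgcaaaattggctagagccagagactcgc
A further RefSeq promoter of *Tef* (chr15:81811164-81811463, plus strand) also held 1 E-box, 138 bases before its start site. Its start lay 8993 bases downstream of the first base of the GENCODE gene, inside the stretch counted as gene body. A match is only a match of letters, and these data hold no binding.

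In the gene body, *Hlf*, *Nfil3* and *Bhlhe40* fell in the KO livers, to 0.559, 0.541 and 0.652 times the WT level. *Tef* was at 0.677 times and *Dbp* at 1.37 times the WT level, both with an adjusted p under 0.05 but a smaller change than the call required, and *Bhlhe41* did not differ detectably. For a call, limma had to give an adjusted p below 0.05 and a log2 fold change beyond 0.6 in either direction, across the 12705 active genes. At the promoter, by contrast, no call was made for any of the 6 genes, in a data set where 25.8% of active genes were called up there. The values below are normalized reads, the counted reads multiplied by 1 factor per library, and the gene body runs from 1 kb after the start site to the end of the transcript.

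**Figure D1:**
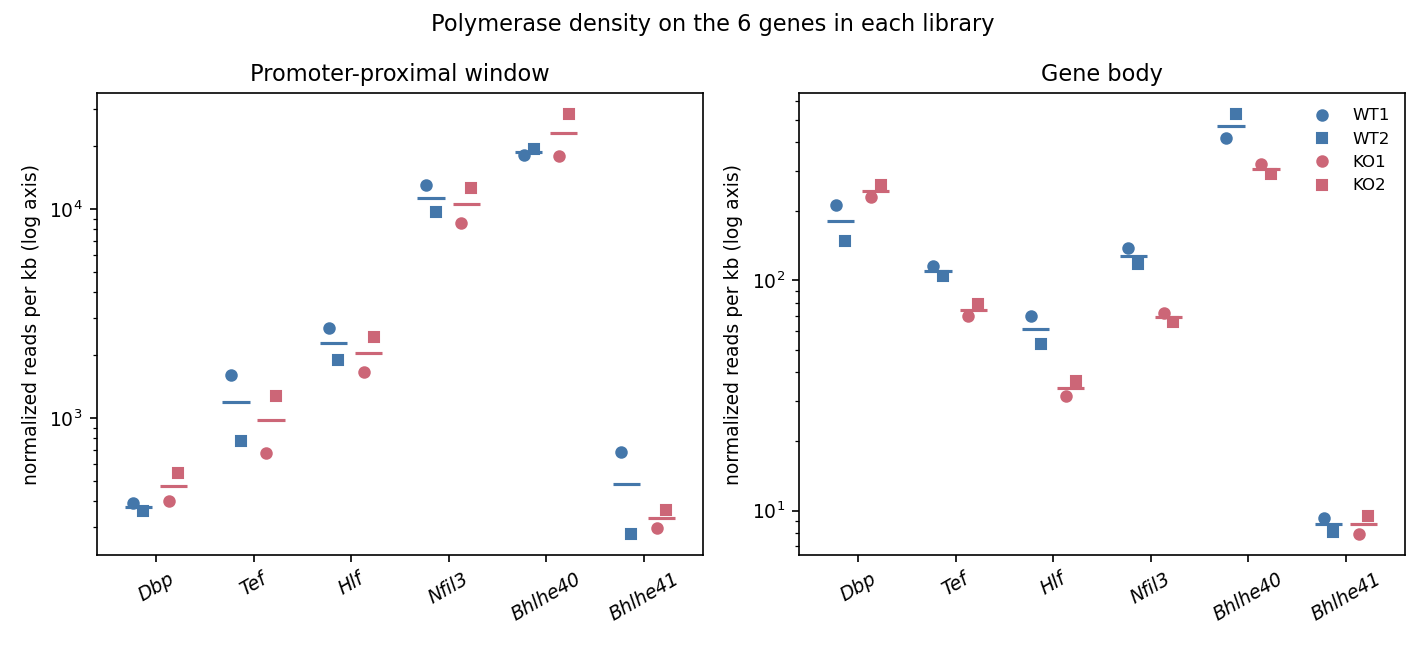
Polymerase density of the 6 genes in each library, as normalized reads per kb on log axes, in the 50 bp promoter-proximal window (left) and the gene body (right). Points are single libraries and bars the mean of 2. In the gene body both KO libraries lie below both WT libraries for *Tef*, *Hlf*, *Nfil3* and *Bhlhe40* and above them for *Dbp*, while in the promoter-proximal window only *Dbp* does not overlap.

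*Dbp* (NM_016974, chr7:45705088-45710203, plus strand, 4 exons) encodes the D-box activator with the largest daily swing in liver. Its gene body held 842 and 588 normalized reads in WT1 and WT2, and 915 and 1023 in KO1 and KO2. Both KO libraries lay above both WT libraries, but KO1 exceeded WT1 by less than the 2 WT libraries differed from each other. The log2 fold change was 0.46 ± 0.15 (SE, n = 2 per genotype; adjusted p = 0.0152, limma), with a 95% interval from 0.16 to 0.76. Without WT1 the log2 fold change was 0.72 (adjusted p = 3.63e-05), which made it a call, and without WT2 it was 0.20 (adjusted p = 0.328). Leaving out KO1 or KO2 gave 0.54 (adjusted p = 0.103) or 0.38 (adjusted p = 0.246), so its adjusted p rested on each of these libraries. The gene that ends next upstream on the same strand is *Car11*, a carbonic anhydrase-related gene whose GENCODE end lies 406 bases before *Dbp*. Its gene body density was 24.8, 17.3, 46.2 and 57.9 normalized reads per kb in WT1, WT2, KO1 and KO2, beside 213, 149, 231 and 259 for *Dbp*, and its log2 fold change was 1.31 ± 0.22 (SE; adjusted p = 3.91e-05). Both genes were higher in KO, and the part of one in the other was not tested. The last 737 bases of *Dbp* overlap *Sphk2* on the opposite strand, whose gene body log2 fold change was -0.22 (adjusted p = 0.117).

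*Tef* (NM_153484, chr15:81802421-81826863, plus strand, 4 exons) encodes thyrotroph embryonic factor, the PAR bZIP factor with the flatter daily profile. Gene body reads numbered 2684 in WT1 and 2418 in WT2, against 1629 in KO1 and 1825 in KO2. The groups did not overlap, and the gap between them was larger than the spread within either. The log2 fold change of -0.56 ± 0.11 (SE, n = 2 per genotype; adjusted p = 0.00032, limma) stopped short of the 0.6 that a call required. It became a call without WT2 (-0.64, adjusted p = 4.26e-05) and without KO2 (-0.64, adjusted p = 0.00804).

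*Hlf* (NM_172563, chr11:90336536-90390895, minus strand, 4 exons) encodes hepatic leukemia factor and is the longest of the 6 genes. Its gene body held 3723 and 2824 normalized reads in the WT libraries (WT1, WT2) and 1676 and 1960 in the KO libraries (KO1, KO2). Both KO libraries were lower than either WT library, and the 2 WT libraries were farther apart than the KO libraries. *Hlf* fell with a log2 fold change of -0.84 ± 0.13 (SE, n = 2 per genotype; adjusted p = 1.08e-05, limma), and 7.37% of active genes had a lower one.

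*Nfil3* (NM_017373, chr13:52967209-52981073, minus strand, 2 exons) fell furthest of the 6 genes as fitted here. Its gene body reads were 1776 (WT1) and 1517 (WT2) in WT livers, and 930 (KO1) and 847 (KO2) in KO livers. The lower WT library was still well above the higher KO library. The log2 fold change was -0.89 ± 0.12 (SE, n = 2 per genotype; adjusted p = 2.91e-06, limma). It was -0.77 or lower whichever library was left out, and *Hlf* lay between -1.04 and -0.64, so that both were called each time. With no filter on activity neither was a call (adjusted p = 0.0625 for *Nfil3* and 0.119 for *Hlf*, limma), where 2.85% of all genes were called down.

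*Bhlhe40* (NM_011498, chr6:108660629-108666925, plus strand, 5 exons) had the highest gene body density of the 6 genes. WT1 and WT2 held 2197 and 2789 normalized reads there, and KO1 and KO2 held 1697 and 1532. Both KO libraries lay below both WT libraries, with WT2 well above WT1. The log2 fold change of -0.62 ± 0.12 (SE, n = 2 per genotype; adjusted p = 0.000261, limma) was just past the call's threshold, and it was no longer a call without WT2 (-0.45, adjusted p = 0.00674), without KO2 (-0.54, adjusted p = 0.0391) or with the gene bodies scaled to a median of no change (-0.54, adjusted p = 0.0065).

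*Bhlhe41* (NM_024469, chr6:145858243-145865558, minus strand, 5 exons) was near the floor of detection. Its gene body, of which only 1604 bases were counted, held 14.9 and 13 normalized reads in WT1 and WT2, and 12.7 and 15.2 in KO1 and KO2, from 13, 13, 12 and 10 actual reads. The groups overlapped. The log2 fold change was -0.0020 with a 95% interval from -0.91 to 0.91, so at this depth neither a rise nor a fall of up to that size can be told from no change.

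Of the 6 genes, 3 were thus called down in the gene body and 0 up, beside 11.4% and 10.4% of active genes. At an unadjusted p under 0.05, still 0 passed the fold threshold upward, and edgeR and DESeq2 on the recovered reads also called 0 up and 3 down. An adjusted p under 0.05 alone was reached by 5 of the 6, beside 39.1% of active genes. Groups that did not overlap were seen for the same number of the 6 genes, but also for 70.5% of all active genes, so this by itself sets them little apart. The median log2 fold change of the 6 genes was -0.59, and that of active genes was -0.09. The 2 against 2 design limits an exact permutation test of any single gene to a two-sided p of 0.33 at the smallest, so the p-values here rest on the spread that limma pools over genes. Nothing in the labels ties a library to single mice, and pooling hides the spread between them.

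**Figure D2:**
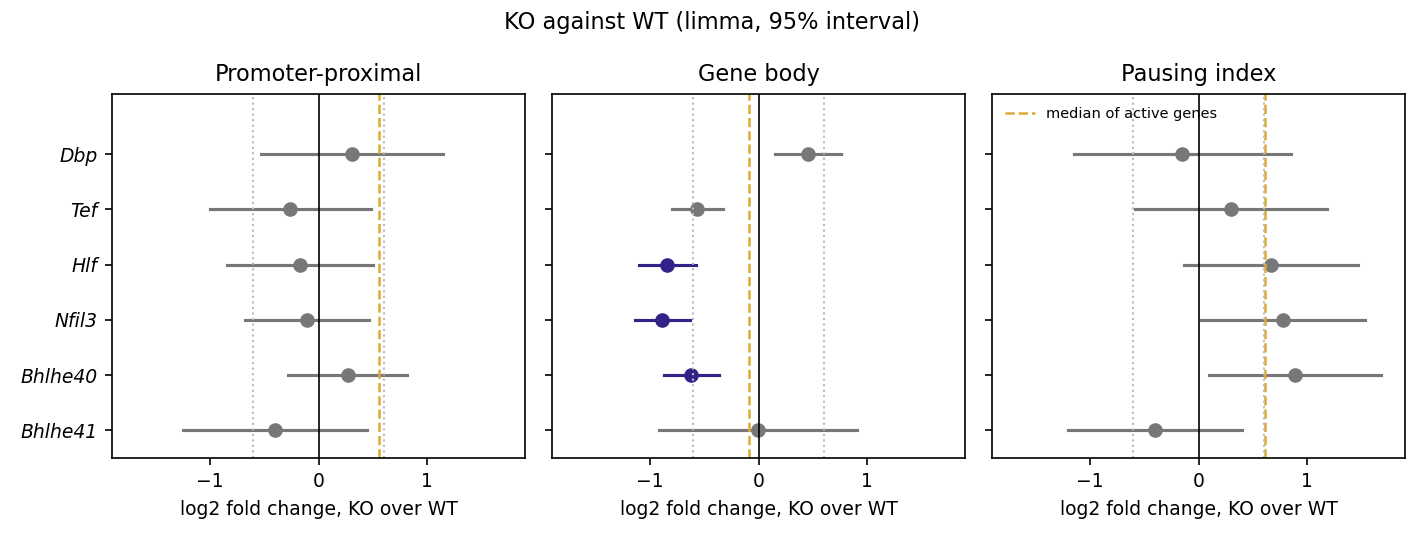
Log2 fold change of KO over WT for each gene in the promoter-proximal window, the gene body and the pausing index, with 95% intervals from limma. Blue marks the 3 calls, dotted lines the 0.6 threshold and dashed lines the median of active genes (0.56, -0.09 and 0.61). In the promoter-proximal panel all 6 points lie to the left of the dashed line and none is called.

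In the gene body, the balance between *Dbp* and the other D-box genes differed between the genotypes, a comparison that no scaling of libraries can alter. The gene body density of *Dbp* was 1.84 and 1.43 times that of *Tef* in WT1 and WT2, and 3.29 times it in both KO1 and KO2. *Dbp* over *Hlf* was 3.05 and 2.81 in WT and 7.37 and 7.04 in KO. *Dbp* over the repressor *Nfil3* was 1.54 and 1.26 in WT and 3.19 and 3.92 in KO. In each of the 3 ratios the KO libraries lay well above the WT libraries, but all 3 share *Dbp*. How often ratios of 2 active genes do not overlap was not computed, and 70.5% of single gene bodies did not. *Tef* over *Hlf* moved less, from 1.66 and 1.97 to 2.24 and 2.14. *Tef* over *Nfil3* also did not overlap, at 0.836 and 0.882 in WT and 0.969 and 1.19 in KO. *Hlf* over *Nfil3* overlapped between the genotypes, at 0.504 and 0.447 in WT and 0.433 and 0.556 in KO. In the promoter-proximal window, where *Dbp* had under 20 reads a library, *Dbp* over *Tef* overlapped, at 0.243 and 0.462 in WT and 0.594 and 0.429 in KO. *Tef* over *Hlf* overlapped there as well, at 0.598 and 0.411 in WT and 0.410 and 0.525 in KO. *Dbp* over *Hlf* did not overlap there, at 0.145 and 0.189 in WT and 0.244 and 0.225 in KO, nor did *Dbp* over *Nfil3*, at 0.0300 and 0.0372 in WT and 0.0470 and 0.0432 in KO. *Hlf* over *Nfil3* did not overlap there either, though it differed little, at 0.207 and 0.196 in WT and 0.193 and 0.192 in KO. No permutation of 4 libraries can give these ratios a p under 0.33, so they are given as values.

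**Figure D3:**
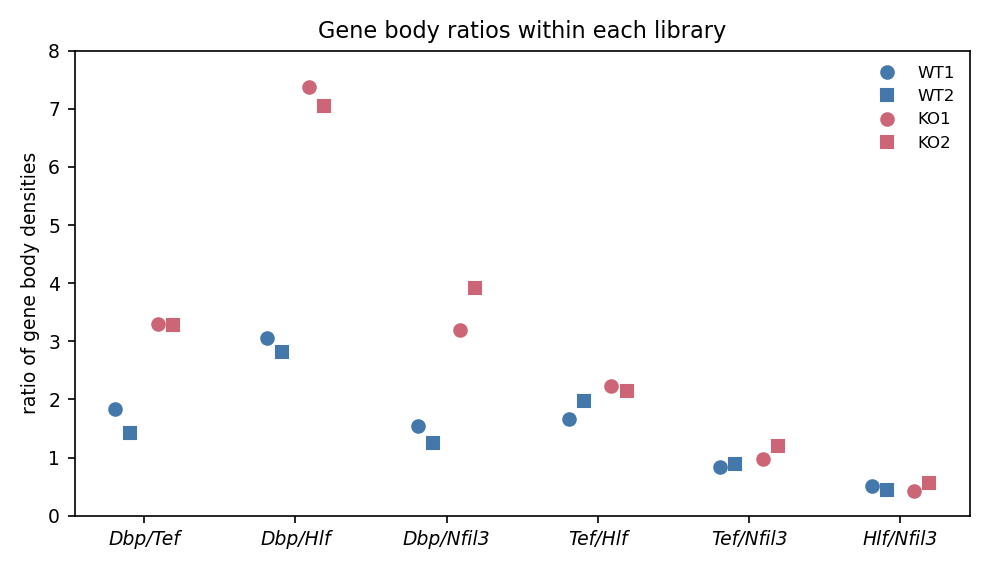
Ratio of the gene body densities of pairs of the 4 D-box genes within each library. Points are single libraries. The ratios of *Dbp* to *Tef*, *Hlf* and *Nfil3* are higher in both KO libraries. So are, by less, those of *Tef* to *Hlf* and *Nfil3*, and *Hlf* over *Nfil3* overlaps between the genotypes.

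The order of the levels can be compared per kb of gene body. In WT livers *Bhlhe40* led at 471 ± 79.0 normalized reads per kb (SD, n = 2), ahead of *Dbp* at 181 ± 45.4, *Nfil3* at 128 ± 14.3, *Tef* at 110 ± 8.10, *Hlf* at 61.3 ± 11.9 and *Bhlhe41* at 8.70 ± 0.844. No neighbours in this order overlapped among the WT libraries. The lowest library of *Nfil3* (118) and the highest of *Tef* (116) came close, as did the lowest of *Dbp* (149) and the highest of *Nfil3* (138). In KO livers *Bhlhe40* was at 305 ± 22.1, *Dbp* at 245 ± 19.3, *Tef* at 74.5 ± 5.96, *Nfil3* at 69.3 ± 4.58, *Hlf* at 34.1 ± 3.76 and *Bhlhe41* at 8.70 ± 1.08. *Tef* and *Nfil3* traded places and overlapped, so their order in KO is not settled by these libraries. The distance between *Bhlhe40* and *Dbp*, 2 of the most densely transcribed genes, closed from 471 against 181 to 305 against 245. *Bhlhe40* stood above 99.0% of active genes in WT and *Dbp* above 94.7%, while *Bhlhe41* stood above 10.7%.

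The promoter-proximal value is the number of reads in the fullest 50 bp window within 500 bases of the start site, on the coding strand. In this window *Dbp* held 19.5 and 18 normalized reads in WT1 and WT2, and 20.2 and 27.3 in KO1 and KO2. These are 17, 18, 19 and 18 actual reads, so the higher value of KO2 comes with the larger factor of that library (1.52, against 1.15, 1 and 1.06 for WT1, WT2 and KO1). *Nfil3* held 649, 484, 429 and 633 in the same order of libraries, and its groups overlapped. *Bhlhe40* held the most, 904, 970, 897 and 1417, with KO2 alone above the rest. *Tef* held 80.3, 39, 33.9 and 63.8, and *Hlf* 134, 95, 82.7 and 121. *Bhlhe41* held 34.4, 14, 14.9 and 18.2, with WT1 alone standing above the rest. In 5 of the 6 genes the WT and KO libraries overlapped, the exception being *Dbp*, whereas the groups did not overlap in 68.6% of active genes.

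None of these promoter-proximal differences passed the test. The log2 fold changes were 0.31 ± 0.43 (SE) for *Dbp*, -0.26 ± 0.38 for *Tef*, -0.17 ± 0.34 for *Hlf*, -0.11 ± 0.29 for *Nfil3*, 0.27 ± 0.28 for *Bhlhe40* and -0.40 ± 0.43 for *Bhlhe41*. The adjusted p-values in limma ran from 0.453 to 0.787. The counts of 0 up and 0 down stand beside 25.8% and 2.20% of active genes, were also 0 at an unadjusted p under 0.05, and were 0 in edgeR and DESeq2. All 6 lay below the median of active genes, which was 0.56 here, by between 0.25 for *Dbp* and 0.96 for *Bhlhe41*. With the libraries scaled so that the median promoter was unchanged, *Dbp* (-0.23) and *Bhlhe40* (-0.30) turned negative and *Nfil3* became a call (-0.68, adjusted p = 0.0313, limma). Under that scaling 7.41% of active genes were called down. The direction for *Dbp* and *Bhlhe40* therefore depends on the scaling, whereas *Tef*, *Hlf*, *Nfil3* and *Bhlhe41* were below 0 under each of the scalings run. The intervals were wide, as for *Hlf*, from -0.84 to 0.50.

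The pausing index is the promoter-proximal density divided by the gene body density. It spanned a wide range among these genes. In WT livers it was 2.24 ± 0.444 (SD, n = 2) for *Dbp*, 10.9 ± 4.51 for *Tef*, 37.5 ± 1.76 for *Hlf*, 40.2 ± 4.77 for *Bhlhe40*, 52.9 ± 26.2 for *Bhlhe41* and 88.0 ± 8.44 for *Nfil3*, where the median of active genes was 47.8. Only 1.46% of active genes had a lower mean index than *Dbp* in WT, and 1.11% in KO, so it was among the genes with the least promoter-proximal signal for their gene body signal. *Tef* was low as well, with 12.6% of active genes lower. A further RefSeq start of *Tef* lies within its counted gene body, and its part in this index was not tested. *Nfil3*, the repressor of the same elements, was above 69.8% of active genes.

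In KO libraries the index of *Hlf* was 53.3 and 66.7, against 38.8 and 36.3 in WT. That of *Nfil3* was 118 and 192, against 93.9 and 82.0, and that of *Bhlhe40* 56.0 and 98.0, against 43.6 and 36.9. For these 3 genes the genotypes did not overlap, with KO2 the highest each time. For *Dbp* (1.83 and 2.19 against 1.92 and 2.55), *Tef* (9.94 and 16.5 against 14.0 and 7.67) and *Bhlhe41* (37.0 and 38.1 against 71.4 and 34.4) they did. The share of active genes whose index did not overlap was not computed. In the promoter-proximal window and the gene body, 68.6% and 70.5% of active genes did not overlap. The log2 fold changes were 0.67 ± 0.41 (SE) for *Hlf*, 0.78 ± 0.39 for *Nfil3* and 0.89 ± 0.40 for *Bhlhe40*, near the median of 0.61 of active genes, with adjusted p-values of 0.215, 0.131 and 0.104 in limma. None of the 6 passed the test, beside 12.4% of active genes called up and 0.519% called down. At an unadjusted p under 0.05, *Nfil3* and *Bhlhe40* were past the fold threshold, as were 34.1% of active genes. Leaving out KO1 made both of them calls (1.13, adjusted p = 0.015, and 1.29, adjusted p = 0.0123), but 41.4% of active genes were called up there too, so 2 of the 6 is near the background.

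The other genes of the same circuit were taken as lists by their known roles. In the gene body, 11.4% of active genes were called down and 10.4% up. At the promoter 25.8% were called up, and in the pausing index 12.4%. Of 11 core clock genes, all active, 4 fell and 1 rose in the gene body. Their median log2 fold change was -0.52, beside -0.09 for active genes. *Arntl* (BMAL1) fell by 0.85 on the log2 scale (adjusted p = 1.29e-06), its partner *Npas2* by 0.74 (adjusted p = 0.000132), and the repressors *Per1* by 0.96 (adjusted p = 9.27e-06) and *Cry2* by 0.99 (adjusted p = 2.98e-07), all in limma. *Nr1d1*, which encodes REV-ERBα, rose from 691 to 1207 normalized reads (log2 fold change 0.83, adjusted p = 5.85e-05). *Rora* was at -0.52 (adjusted p = 0.000538) in the gene body and was called up at the promoter (1.03, adjusted p = 0.0167). *Clock* (-0.14), *Per2* (-0.23), *Per3* (-0.40), *Cry1* (-0.53) and *Nr1d2* (0.14) were not called. In the pausing index *Arntl*, *Per1*, *Cry1* and *Rora* were called up, where the median of active genes was 0.61. Their log2 fold changes were 1.14, 1.38, 1.05 and 1.54 (adjusted p = 0.0342, 0.0254, 0.0447 and 0.00381, limma). With each region scaled to a median of no change, 0 of them were called up in this index.

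Of 4 other E-box outputs, *Nampt*, an enzyme on the path from nicotinamide to NAD, fell in the gene body by 0.79 on the log2 scale (adjusted p = 1.94e-06, limma). *Usp2* was at -0.57 (adjusted p = 0.00105) and not called. *Wee1*, a kinase that delays mitosis, and *Ciart*, a clock repressor, rose at the promoter (1.32 and 1.24) and in the pausing index (1.17 and 1.56), with gene body values of 0.15 and -0.32 that were not called. *Ciart* stands in the table under an older symbol.

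**Figure D4:**
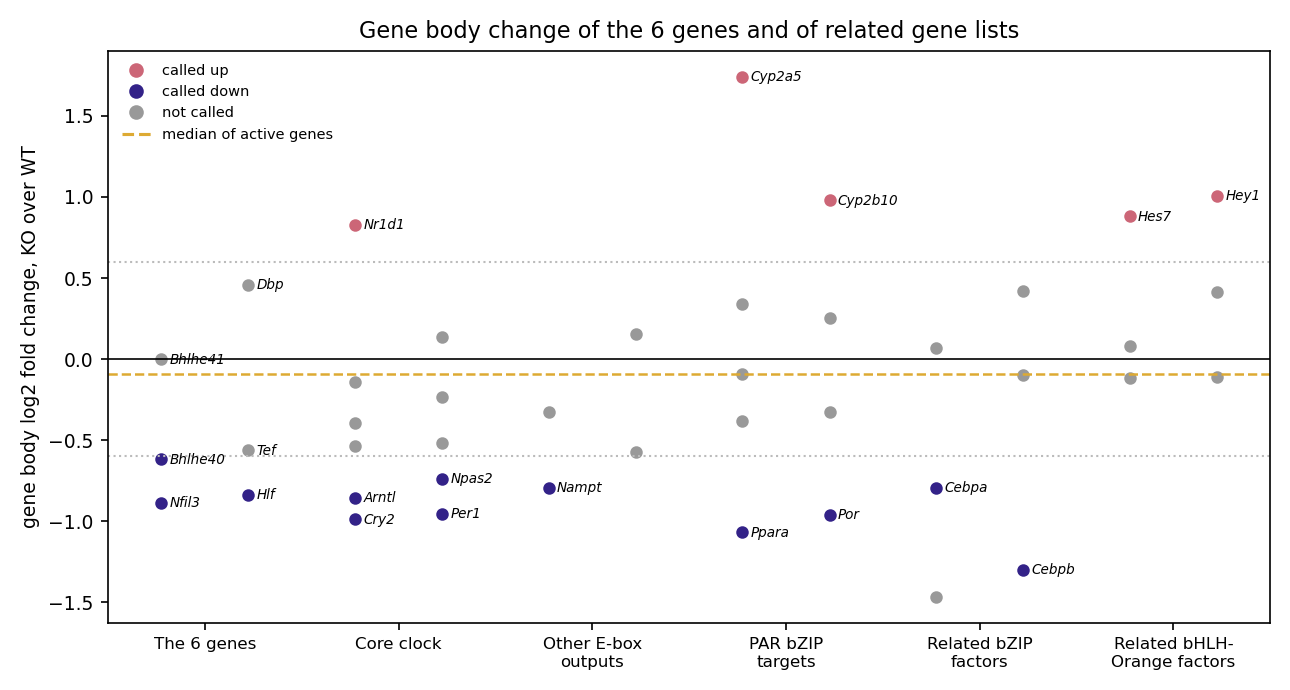
Gene body log2 fold change of KO over WT for the 6 genes and for each active gene of 5 related lists. Names are given for the 6 genes and for every call, dotted lines mark the 0.6 threshold, and the dashed line marks the median of active genes at -0.09. Calls in both directions are seen among the core clock genes and the PAR bZIP targets.

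Of 10 liver genes known as PAR bZIP targets, 9 were active. In the gene body 2 rose and 2 fell, beside 10.4% and 11.4% of active genes. Their median log2 fold change was -0.09, the same as that of active genes. *Por*, which passes electrons to the cytochromes P450, fell from 17810 to 9166 normalized reads (-0.96, adjusted p = 2.43e-07, limma), and *Ppara*, the fatty acid-sensing nuclear receptor, from 24037 to 11427 (-1.07, adjusted p = 1.57e-07). *Cyp2a5*, a drug-metabolizing enzyme long used as a *Dbp* target, rose from 116 to 381 (1.74, adjusted p = 1.54e-07) and also at the promoter (1.44, adjusted p = 0.0126). *Cyp2b10* rose from 102 to 200.4 (0.98, adjusted p = 0.000351). In the pausing index *Cyp2b10* was called down (-1.25, adjusted p = 0.0426, limma), from 1.06 to 4.59 normalized reads at the promoter. *Por* was called up there (1.13, adjusted p = 0.0425, limma). Of active genes 0.519% were called down in this index and 12.4% up. *Cyp2a4*, a near-identical copy of *Cyp2a5*, was below the activity filter, and reads shared by the pair make both values uncertain. *Alas1* (0.25), *Cyp2c37* (0.34) and *Cyp7a1* (-0.38) were not called, although *Cyp7a1*, the rate-limiting enzyme of bile acid synthesis, had an adjusted p of 0.0226.

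Among 6 related bZIP factors, all active, *Cebpa* and *Cebpb* fell in the gene body, by 0.79 (adjusted p = 2.62e-05, limma) and 1.30 (adjusted p = 1.28e-05) on the log2 scale. *Cebpb* was also called up in the pausing index (1.52, adjusted p = 0.00662, limma). *Cebpd* rose at the promoter (0.82, adjusted p = 0.012) with a gene body value of 0.42 that was not called, and *Cebpg* (-0.10), *Ddit3* (0.07) and *Cebpe* (-1.47, from under 6 reads a library on average) were not called. Of 10 bHLH-Orange relatives of *Bhlhe40*, 6 were active. *Hes7* (0.88, adjusted p = 0.00415) and *Hey1* (from 20.3 to 41.8 reads, adjusted p = 0.0191) rose in the gene body and at the promoter, and *Heyl* rose at the promoter (1.45, adjusted p = 0.00343) with a gene body value of 0.41 that was not called. *Hes1* (0.08), *Hes6* (-0.12) and *Hes5* (-0.11) were not called. Of the 6 active relatives 0 were called down in the gene body in limma, also at an unadjusted p, beside 11.4% of active genes, and a difference from *Bhlhe40* was not tested. Over these 5 lists, 8 genes were called up at the promoter, and 1, 0 and 0 were without WT1, WT2 and KO2. The share of active genes called up there fell likewise, from 25.8% to 5.53%, 3.88% and 2.51%. The 8 calls up in the pausing index became 0, 0 and 2 without the same libraries and 15 without KO1, where 0.323%, 0.228%, 3.12% and 41.4% of active genes were called up. In the gene body 9 to 11 list genes were called down whichever library was left out.

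The genes with the most similar pattern were sought over the 8 log2 values of a gene (2 regions in 4 libraries), each region centred on its own mean, among 8755 or 8756 other active genes with at least 50 normalized reads on average in both regions. *Dbp* was nearest to *Sqstm1* (Euclidean distance 0.199) and *Aldh3a2* (0.259), where the median gene was at 0.963. *Tef* was nearest to *1700021F05Rik* (0.251) and *E2f8* (0.252), *Hlf* to *Apom* (0.210) and *Pgpep1l* (0.216), *Nfil3* to *Mccc2* (0.172) and *Dnaja3* (0.185), *Bhlhe40* to *Qsox1* (0.154) and *Galk1* (0.179), and *Bhlhe41* to *Dhcr7* (0.349) and *Cables1* (0.417). *Nfil3* was the gene ranked 12 for *Hlf* (0.298), and *Hlf* the gene ranked 21 for *Nfil3*. These 2 genes thus had much the same pattern in these libraries, whereas *Tef*, *Hlf* and *Nfil3* were ranked 7774, 7804 and 7900 for *Dbp*. With 4 libraries many genes share a pattern closely, so a short distance is a description only.

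The deposited list of 2282 intergenic enhancers, called on the reads pooled over all libraries, holds 1 enhancer whose closest gene is one of the 6. It lies upstream of *Hlf* (chr11:90417528-90418768, known in FANTOM5), with its center 27197 bases from the GENCODE start of the gene. The list also places 1 enhancer within 50 kb of *Nfil3* (chr13:52940008-52942114, not known in FANTOM5), which is nearer to *Auh*, and 1 within 50 kb of *Bhlhe40* (chr6:108709224-108710460, not known in FANTOM5). Their centers lie 39854 and 49221 bases downstream of the GENCODE start of *Nfil3* and *Bhlhe40*. *Dbp*, *Tef* and *Bhlhe41* had none within that distance. By chromatin contacts from 4DGenome, the list links 2 enhancers to *Dbp*, 3 to *Tef*, 2 to *Hlf*, 1 to *Nfil3*, 2 to *Bhlhe40* and 0 to *Bhlhe41*. For *Hlf* and *Bhlhe40* these include the enhancers described above. The cells named for these contacts are Th1, ESC, NSC, NPC and Ter119, and liver is not among them. Some links join different chromosomes, as for *Dbp* (chr2), *Tef* (chr19 and chr4) and *Bhlhe40* (chr12). The other *Hlf* link lies 28982912 bases from its start. The 3 genes with an enhancer within 50 kb are the 3 that were called down in the gene body. That match depends on the 50 kb limit and on the threshold of the call, does not hold for the 4DGenome links, and was not tested. The change of these enhancers between the genotypes was not analysed here.

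Other measures moved with these results. The libraries held from 16628518 to 26190040 reads on genes, with KO2 the lowest, and the share of them in promoter-proximal windows was 10.3% and 9.38% in WT1 and WT2 and 13.6% and 17.0% in KO1 and KO2. *Hdac3* itself held 665 and 648 gene body reads in the WT and 609 and 582 in the KO libraries (log2 fold change -0.14, adjusted p = 0.413, limma); this value covers the gene body as a whole and does not check the genotype labels. Of 6 hepatocyte markers, 4 fell in the gene body (*Alb*, *Apoa1*, *Cps1* and *Hnf4a*), and their summed level was 280862 to 281829 normalized reads in WT and 131184 to 136215 in KO. All 6 stellate cell markers rose (summed level 9184 to 10317 in WT and 18302 to 19969 in KO), as did 5 of 6 endothelial markers (50603 to 54562 and 86081 to 96767). Kupffer and myeloid markers held 16242 to 16299 in WT and 17397 to 21057 in KO, with 0 of 6 called in limma. All 5 erythroid markers fell (784 to 1002 and 266 to 357), 1 of 4 lymphocyte markers rose and 1 fell (469 to 531 and 498 to 560), and 1 of 3 active cholangiocyte markers fell. The summed level of all 5 cholangiocyte markers was 158 to 208 in WT and 152 to 182 in KO. No marker was at 0 in the gene body of any library. In bulk nuclei, fewer cells of a type and less transcription per cell cannot be told apart, and the part of these measures in the changes of the 6 genes was not tested.

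**Figure D5:**
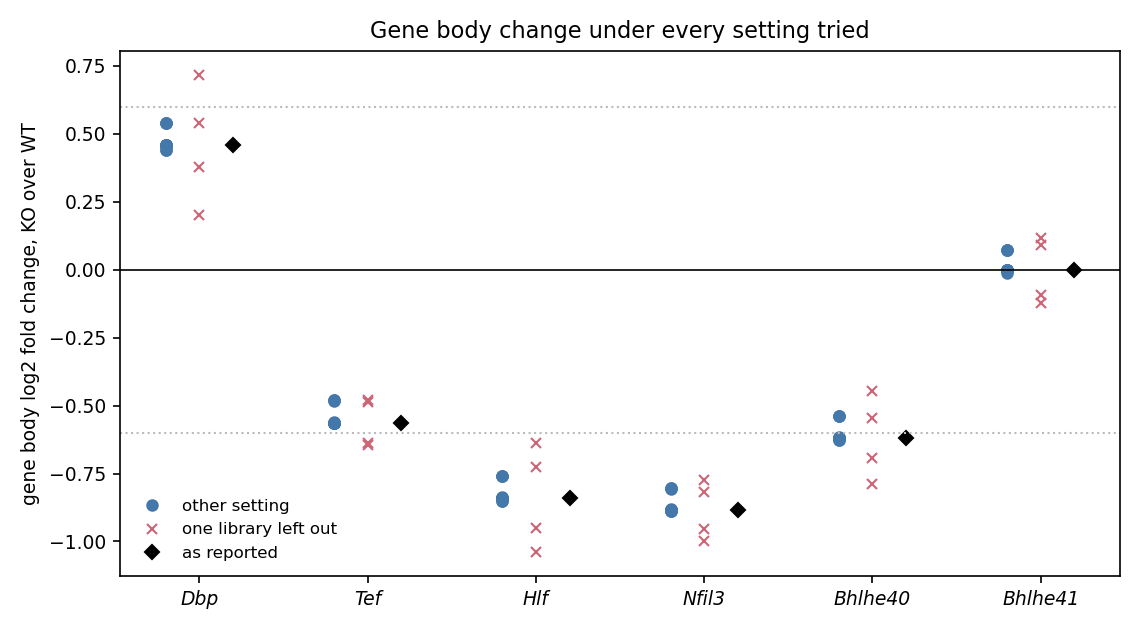
Gene body log2 fold change of each gene as reported (diamonds), with single libraries left out (crosses) and under the other settings (circles). *Hlf* and *Nfil3* stay below -0.6 throughout, *Tef* and *Bhlhe40* lie on both sides of it, and *Dbp* runs from 0.20 to 0.72.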

How the data were processed

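PRO-seq was analysed in 2 WT and 2 KO libraries, grouped by their labels. The authors trimmed the reads with cutadapt, mapped them with Bowtie2 to mm10, discarded rRNA reads and mapping qualities under 10, and counted the rest per gene region with NRSA. The values the authors deposited for WT2 are plain read counts. For the other libraries the authors deposited normalized signal, which is their counts multiplied by 1 factor per library, and dividing by the factor gave whole reads (within 0.001) for 100% of 41640 values per library. Enhancer coordinates are deposited as positions in bp.

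For each symbol, the row highest on average at the promoter was used. Log2(value + 1) of active genes was compared with limma 3.58.1 in R 4.3.3 (two-sided moderated test with a mean-variance trend and no block) with Benjamini-Hochberg adjustment over active genes. A fold change on this scale understates the change of low genes. The pausing index took 1 read more in both regions. Alternatives used edgeR 4.0.16 and DESeq2 1.42.0 on the recovered reads, pseudocounts of 0.1 and 10, other filters, scalings and thresholds, a replicate block and the omission of single libraries. The activity filter was applied on the deposited scale. The tests were tried on simulated data. Python 3.11.15, pandas 2.3.3 and matplotlib 3.10.9 were used for the rest.

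One gene of the core clock list is not reported here and was left out of its counts. The genes, the lists and the tests were chosen with earlier results of these data known. The genes named are the 6, those of each list called in any region with up to 3 others of highest gene body value, the 2 of most similar pattern per gene, and *Hdac3*. *Car11*, *Sphk2*, *Per3*, *Cyp2a4*, *Auh* and the marker genes fall outside this rule. *Car11* and *Sphk2* were looked up by position after the values were seen. Gene positions are from GENCODE M21 (GRCm38, as mm10). Proteins were not analysed here. Columns of the authors' comparisons were not present in the tables used.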

Additional observations from a re-analysis of the deposited data

How the results depend on the processing

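The falls of *Hlf* and *Nfil3* in the gene body kept their direction and their call under all alternatives but one. With no filter on activity all 6 fold changes were as reported. The adjusted p-values of *Hlf* (-0.84), *Nfil3* (-0.89) and *Bhlhe40* (-0.62) were then 0.119, 0.0625 and 0.137 in limma, so that 0 of the 6 genes were called down. Of all 20642 genes 2.85% were called down there, against 11.4% of active genes with the filter, and the cause was not tested. Median-of-ratios scaling, within the region or from gene bodies, gave *Bhlhe40* -0.54 and *Bhlhe41* 0.074, and TMM gave -0.54 and 0.072, so that *Bhlhe40* was no longer called. Without a threshold on the fold change, 1 gene was called up (*Dbp*, 0.46) and *Tef* (-0.56) was called down. *Bhlhe41* was not tested at a density over 10 per kb. At the promoter, median-of-ratios within the region gave *Dbp* -0.23, *Bhlhe40* -0.30 and *Nfil3* -0.68, and TMM gave -0.24, -0.30 and -0.68. Under each, 1 of the 6 genes was called down, beside 7.41% and 7.47% of active genes. Under the same 2 scalings the pausing index of *Tef* was -0.34 and -0.34. Median-of-ratios within the region called 0 genes of the fixed lists up and 5 down at the promoter, and 0 up and 0 down in the pausing index, since it removes the common rise of promoters. Ordered by promoter-proximal density, 11 of the 15 pairs of genes kept the order they had by gene body density.

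Same-numbered libraries did not deviate together (correlation -0.105 at the promoter and 0.0189 in the gene body), so they share only a number. With a replicate block, 3 of the 6 genes were again called down in the gene body, beside 11.4% of active genes. Over active genes the calls were 1772 up and 177 down at the promoter and 186 up and 12 down in the pausing index. With the replicate numbers crossed, an alternative added once the data had been seen, limma gave 4861 up and 399 down at the promoter and 2 of the 6 genes up in the pausing index (*Nfil3* at 0.78 and *Bhlhe40* at 0.89), beside 32.3% of active genes called up in that index.

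With single libraries left out, which leaves one genotype with 1 library assumed to vary like the other, the gene body changes ran from 0.20 to 0.72 for *Dbp*, -0.64 to -0.48 for *Tef*, -0.79 to -0.45 for *Bhlhe40* and -0.12 to 0.12 for *Bhlhe41*. Each time 3 genes were called down, but not always the same genes, and 0 to 1 were called up. Promoter-proximal changes ran from -0.77 to 0.25 for *Tef*, -0.44 to 0.10 for *Hlf*, -0.39 to 0.18 for *Nfil3*, -0.061 to 0.60 for *Bhlhe40* and -1.02 to 0.22 for *Bhlhe41*, none of them called. Pausing index changes ran from -0.35 to 0.055 for *Dbp*, -0.14 to 0.74 for *Tef*, 0.43 to 1.13 for *Nfil3*, 0.48 to 1.29 for *Bhlhe40* and -0.93 to 0.13 for *Bhlhe41*, with 0 to 2 of the 6 genes called up. Of the genes of the fixed lists, 0 to 8 were called up at the promoter, 3 to 6 in the gene body and 0 to 15 in the pausing index, where 0 to 1 were called down.

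Depth limits *Bhlhe41* and the promoter of *Dbp* most, at under 20 reads in most libraries. With 2 libraries per genotype and several times that number of mice in each pool, the spread between mice is unknown.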
